A study of Mus musculus with 1753 samples.

Results

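Described here are the 10 secreted ligands Angpt1, Angpt2, Angpt4, Angptl1, Angptl2, Angptl4, Angptl7, Vegfa, Vegfc and Vegfd. They were taken by gene symbol from a table of 46517 genes counted in 1753 single cells of mouse skeletal muscle, and all 10 were found. The cells were fibroblasts and mural cells (pericytes and vascular smooth muscle cells) sorted from male mice of 10 to 20 weeks as negative for the endothelial protein CD31 and positive for PDGFRα, PDGFRβ or a fluorescent reporter. Each cell carried a cluster number from 1 to 10 and 1 of 5 strain labels. The label C57BL6 covered 373 cells of mice without a named reporter, and the reporter labels Acta2GFP, Cspg4dsRED, PdgfrbGFP and PdgfraGFP - PdgfrbGFP pool covered 157, 181, 630 and 412 cells. A reporter marks the cells in which its promoter is active, so each strain supplied a different mix of cells. The labels name no animal, and the strain was used as the replicate on the assumption that each label stands for different mice. Per the study's methods, the soleus of the pool came from a mouse of each reporter, and elastase was added when Acta2GFP muscle was dissociated. Whether the pool and the PdgfrbGFP cells share animals is not stated, and the p-values measure only the spread between these labels.

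Following the study's terms, clusters 2 and 9 (328 cells) were perimysial, the sheath around bundles of muscle fibres. Clusters 1, 3, 5, 6 and 8 (1116 cells) were endomysial, the tissue around single fibres, and cluster 4 (60 cells) was paramysial, placed by the study at the edge of the perimysium. Cluster 7 (187 cells) was mural and cluster 10 (62 cells) was a Ngfr-positive group without a class name. The study reports that only a few pericytes were captured from skeletal muscle, so the mural levels are not a measure of pericytes. Levels are counts per 500000 counts of a cell, averaged over the cells of a strain and then over strains with 3 or more such cells, and a cell was counted as positive at a level of 100 or more. The median cell held 258251 counts. The Cspg4dsRED cells were the shallowest, with a median of 121646 counts, and the pool was the deepest, with 367563. The defining mural markers summed to between 9003 and 13833 in cluster 7 of each strain, and to between 32.0 and 215 in cluster 8, while fibroblast markers summed to 10330 or more in cluster 8. Clusters had been made by the authors from the same counts, so a difference between clusters describes that clustering, and its p-value only says how repeatable it was over strains.

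Angiopoietins bind the receptor tyrosine kinase Tie2, encoded by Tek, on endothelial cells. Angpt1 activates it and holds vessels quiescent, Angpt2 can block or weakly activate it during vessel remodelling, and Angpt4 is a further ligand. The angiopoietin-like proteins share their fold but do not bind Tie2. Angptl4 inhibits lipoprotein lipase, Angptl2 binds integrins and immune receptors, and Angptl1 and Angptl7 are secreted proteins with less settled receptors. Vegfa drives blood vessel growth through Kdr, and Vegfc and Vegfd act mainly through Flt4 on lymphatic vessels.

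Among these genes the angiopoietin-like ligands dominated. Angptl2 was positive in 874 of 1753 cells (49.9%), Angptl1 in 700 (39.9%), Angptl7 in 400 (22.8%) and Angptl4 in 264 (15.1%). Of the angiopoietins, Angpt1 was positive in 161 cells (9.18%), Angpt2 in 58 (3.31%) and Angpt4 in 57 (3.25%). The VEGF ligands were rare, with Vegfd in 71 cells (4.05%), Vegfc in 49 (2.80%) and Vegfa in 17 (0.970%). In 324 cells (18.5%) no member was positive, and 573 cells (32.7%) held 2 members together. Each of the most abundant ligands had its own distribution over the clusters.

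**Figure D1:**
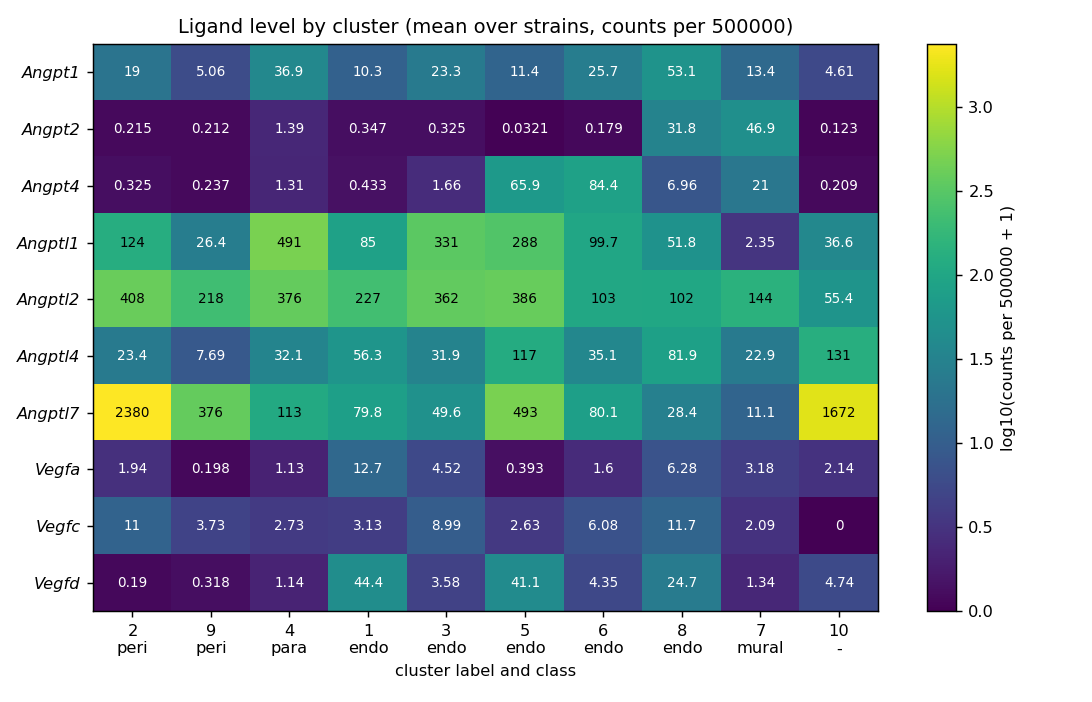
Mean level of each ligand (rows) in each cluster (columns, with its class), in counts per 500000 averaged over strains; the colour is log10 of the level plus 1. Angptl7 reached 2380 in cluster 2 and 1672 in cluster 10, whereas Vegfa did not pass 12.7 in any cluster.

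Promoter sequences are shown for Angptl7, Angptl1 and Angptl2, the most abundant ligands, and for Angpt4 and Vegfd, whose windows both hold a TATA box core. Each window runs from 250 bases before to 50 after the RefSeq start site (GRCm38.p6), 5′ to 3′ on the gene's strand. Capitals mark motifs found on either strand. The core of the TATA box was searched as TATAAA. The CCAAT box was searched under the letters of its name. The core of the hypoxia response element was searched as ACGTG. The E-box was searched as CANNTG, and it can overlap the hypoxia core where a C comes first.
Angptl7 (chr4:148500413-148500712, minus strand): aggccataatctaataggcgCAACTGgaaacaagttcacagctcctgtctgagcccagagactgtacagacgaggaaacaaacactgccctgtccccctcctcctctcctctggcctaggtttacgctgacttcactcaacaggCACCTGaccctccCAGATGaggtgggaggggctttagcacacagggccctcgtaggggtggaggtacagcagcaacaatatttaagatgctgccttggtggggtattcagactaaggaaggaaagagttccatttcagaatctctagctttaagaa
Angptl1 (chr1:156838773-156839072, plus strand): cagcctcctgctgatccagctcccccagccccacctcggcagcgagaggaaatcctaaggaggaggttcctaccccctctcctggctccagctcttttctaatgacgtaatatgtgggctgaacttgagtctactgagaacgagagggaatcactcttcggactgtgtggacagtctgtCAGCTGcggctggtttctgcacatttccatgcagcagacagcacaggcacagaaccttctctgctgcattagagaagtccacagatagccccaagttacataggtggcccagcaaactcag
Angptl2 (chr2:33215711-33216010, plus strand): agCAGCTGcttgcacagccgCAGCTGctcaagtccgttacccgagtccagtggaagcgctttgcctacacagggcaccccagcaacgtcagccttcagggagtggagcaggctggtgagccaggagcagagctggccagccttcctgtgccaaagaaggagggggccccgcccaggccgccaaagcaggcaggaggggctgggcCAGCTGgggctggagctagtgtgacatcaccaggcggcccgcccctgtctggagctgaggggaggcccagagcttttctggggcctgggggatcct
Angpt4 (chr2:151910957-151911256, plus strand): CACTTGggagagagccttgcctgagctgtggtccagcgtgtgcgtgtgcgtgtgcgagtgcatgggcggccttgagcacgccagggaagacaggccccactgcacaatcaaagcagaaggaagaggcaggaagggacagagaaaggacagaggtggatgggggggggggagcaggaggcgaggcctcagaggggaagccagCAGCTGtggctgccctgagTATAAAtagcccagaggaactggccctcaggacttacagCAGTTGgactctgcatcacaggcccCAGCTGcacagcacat
Vegfd (chrX:164373272-164373571, plus strand): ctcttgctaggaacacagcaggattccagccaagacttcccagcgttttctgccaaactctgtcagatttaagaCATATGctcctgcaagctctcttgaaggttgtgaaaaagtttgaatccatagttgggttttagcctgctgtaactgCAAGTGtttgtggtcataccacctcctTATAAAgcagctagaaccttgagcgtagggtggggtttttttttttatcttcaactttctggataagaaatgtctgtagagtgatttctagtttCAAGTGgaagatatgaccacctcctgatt

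The Angptl7 window held 3 E-boxes, at -230, -106 and -93 from the start site, the Angptl2 window also held 3 and the Angptl1 window 1. A TATA box core began at -30 in Angpt4 and at -73 in Vegfd. Over 32851 promoter windows of the same length, 72.3% held an E-box, 13.6% a TATA box core, 37.4% a CCAAT box and 19.6% a hypoxia core. The hypoxia core was found among the members only in 1 of 2 windows of Vegfa (chr17:46025114-46025413), at -211. That window belongs to a start site inside the gene. The window at the 5′ end of Vegfa (chr17:46032328-46032627) held 0 hypoxia cores. The Vegfc window was 70.3% G and C with 35 CG pairs, against a median of 52.7% and 7 pairs over all windows. These letters were matched as text, and binding was not measured. No window was at hand for Angpt1, Angpt2 and Angptl4.

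Angptl7 lies at chr4:148495183-148500460 (GRCm38), on the minus strand within Mtor, and was the most abundant of the members. In cluster 2 its level was 1294 in C57BL6, 2158 in Acta2GFP, 2189 in the pool, 2334 in PdgfrbGFP and 3926 in Cspg4dsRED. In cluster 10 it was 1516 in Cspg4dsRED, 1617 in the pool and 1885 in PdgfrbGFP. The ranges of these 2 clusters overlapped, and both lay above every other cluster in every strain. Clusters 5 and 9 followed with 493 ± 210 (SD, n = 3) and 376 ± 216 (SD, n = 4), and the other endomysial clusters stood between 28.4 and 80.1. In mural cells it was 11.1 ± 4.16 (SD, n = 5) with 0 of 187 cells positive, which allows a share of up to 1.60%. Of the 400 positive cells, 285 were in clusters 2, 9 and 10. Cells of cluster 2 were not uniformly positive, since 219 of 269 passed the level of 100 and the highest single cell reached 9849.

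Angptl1 (chr1:156838562-156861078, plus strand) was highest in paramysial and in some endomysial cells. In cluster 4 its level was 682 in C57BL6, 612 in Acta2GFP, 426 in the pool and 243 in PdgfrbGFP, the last from 4 cells. In cluster 3 it was between 249.1 and 395.0 in 4 strains, and in cluster 5 between 149 and 381 in 3 strains. These clusters overlapped with each other. The endomysial cluster 8 had 51.8 ± 27.5 (SD, n = 4), and no strain of cluster 8 came above 86.4. Among perimysial cells, cluster 2 spread widely, from 0.911 in Cspg4dsRED to 218 in C57BL6. In mural cells Angptl1 was at 3.67 or less in every strain, with 0 of 187 cells positive, which allows up to 1.60%. Angptl1 lies within Ralgps2, and 16.4% of its exonic bases are shared with Gm37802 on the opposite strand. The use of strand in the counting was not stated, so part of the reads of these genes could not be told apart.

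Angptl2 (chr2:33216069-33247717, plus strand, within Ralgps1) was the broadest. Clusters 2, 3, 4 and 5 had mean levels of 408, 362, 376 and 386, and their strain ranges overlapped. Clusters 6 and 8 were lower, with 103 ± 36.5 and 102 ± 15.6 (SD, n = 4 each), and no strain of either reached the lowest strain of cluster 3 at 311. Mural cells held it as well, at 59.7 in Acta2GFP, 205 in C57BL6, 45.2 in Cspg4dsRED, 350 in the pool and 58.0 in PdgfrbGFP. The pool and C57BL6 mural values rest on 11 and 9 cells and stood above the others.

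Angptl4 (chr17:33773750-33781830, minus strand), the lipoprotein lipase inhibitor, was highest in cluster 10, with 133 in Cspg4dsRED, 148 in the pool and 113 in PdgfrbGFP. Cluster 5 followed but spread from 22.3 to 231, and cluster 8 ranged from 63.4 to 105. Cluster 10 overlapped with cluster 5 but not with cluster 8. The C57BL6 cells were lowest of the strains in clusters 3, 4, 5, 6, 7 and 9, at 0.470 to 22.3, but not in cluster 8, where they had 88.8. Its target Lpl was present in the same tissue, at 438 in endomysial and 135 in perimysial cells.

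**Figure D2:**
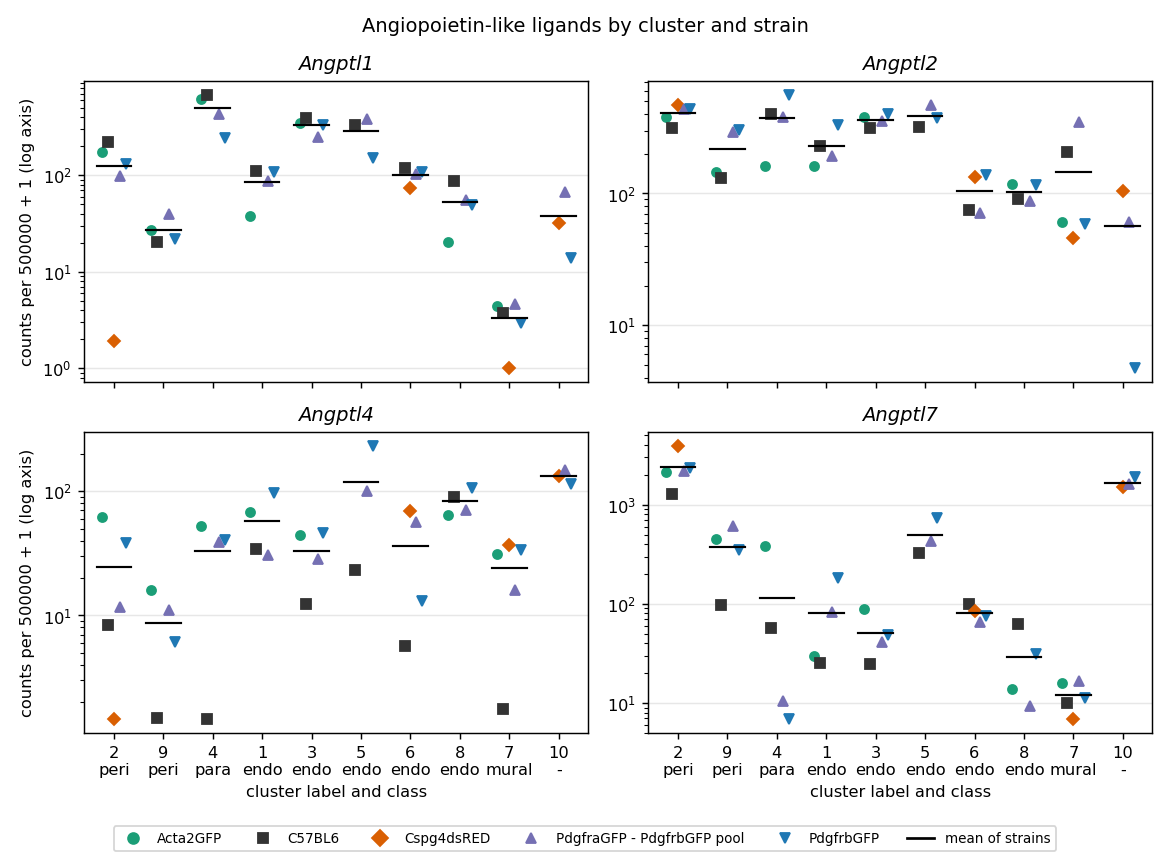
Level of the 4 angiopoietin-like ligands (vertical log axis, counts per 500000 plus 1) in each cluster, with 1 point per strain with 3 or more cells and a bar at their mean. Angptl7 stood at 1294 or more in every strain of clusters 2 and 10, and Angptl1 was at 3.67 or less in mural cells (cluster 7).

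Angpt2 (chr8:18690263-18741562, minus strand, within Mcph1) was confined almost wholly to a pair of clusters in these cells: 56 of its 58 positive cells lay in mural cluster 7 (25 cells) and endomysial cluster 8 (31 cells), and the other 2 were paramysial. In mural cells its level was 33.9 in Acta2GFP, 1.86 in C57BL6, 47.0 in Cspg4dsRED, 117 in the pool and 34.6 in PdgfrbGFP. In cluster 8 it was 18.5 in Acta2GFP, 30.8 in C57BL6, 35.1 in the pool and 42.7 in PdgfrbGFP. The 2 clusters overlapped, and cluster 8 lay above all remaining clusters in every strain, none of which passed 5.43. The neighbouring endomysial cluster 3 had 0 of 440 positive cells, which allows up to 0.682%. Even in cluster 8, 222 of 253 cells were not positive.

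Since Angpt2 is known from endothelial cells, endothelial markers were read in the same cells. In mural cells the 12 markers summed to between 253 and 393 over the 5 strains, which rested on Esam (292), a gene of cell junctions. Averaged over all mural cells, the other 11 markers were at 0.451 to 10.5, with Flt1 at 10.5, Pecam1 at 8.48, Kdr at 3.91 and Cdh5 at 0.451. Kdr had a mean of 63.0 over the 11 mural cells of the pool, which also had the highest Angpt2 level. Very few mural cells were positive for Kdr (share given below), whereas 4 of these 11 were positive for Angpt2. Whether the same cells held both was not tested. In cluster 8 the median marker sum was 6.30 in the 31 Angpt2-positive cells and 10.1 in the other 222. In mural cells the corresponding medians were 232 in 25 and 154 in 162 cells. Of the 25 Angpt2-positive mural cells 0 were positive for Angpt4, which was positive in 15 of all 187 mural cells. The part of other cells in the mural values was not tested beyond these levels.

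Angpt1 (chr15:42424723-42676977, minus strand), the main Tie2 activator, was highest in cluster 8, at 31.7 in Acta2GFP, 94.0 in C57BL6, 43.8 in the pool and 43.2 in PdgfrbGFP. Cluster 4 followed with 36.9 ± 22.3 (SD, n = 4), and no cluster differed from the next in order beyond the range of its strains. Of the 161 positive cells, 55 were in cluster 8 and 40 in cluster 3. In cluster 8, 4 of the 55 Angpt1-positive cells were also positive for Angpt2, against 27 of the 198 others. With so few cells this difference was not tested. In the Cspg4dsRED strain 0 counts of Angpt1 were found in 107 fibroblasts with 14362808 counts, which allows a level of up to 0.104, while the other strains stood between 14.3 and 30.3. Of Angpt1's exonic bases, 14.2% are shared with Gm17473 on the opposite strand.

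Angpt4 (chr2:151911210-151945337, plus strand) had its highest mean in endomysial cluster 6, which did not stand apart from cluster 5 or mural cells. In cluster 6 its level was 191 in C57BL6, 71.4 in Cspg4dsRED, 58.7 in the pool and 16.1 in PdgfrbGFP, and 26 of 231 cells were positive. Cluster 5 spread from 0 in PdgfrbGFP to 171 in C57BL6. Mural cells held it in 2 strains, at 42.2 in Acta2GFP and 58.1 in Cspg4dsRED, with 4.74 in PdgfrbGFP and 0 in the other two. Perimysial cells had 0 of 328 positive, which allows up to 0.915%, and cluster 10 had 0 of 62, which allows up to 4.84%.

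**Figure D3:**
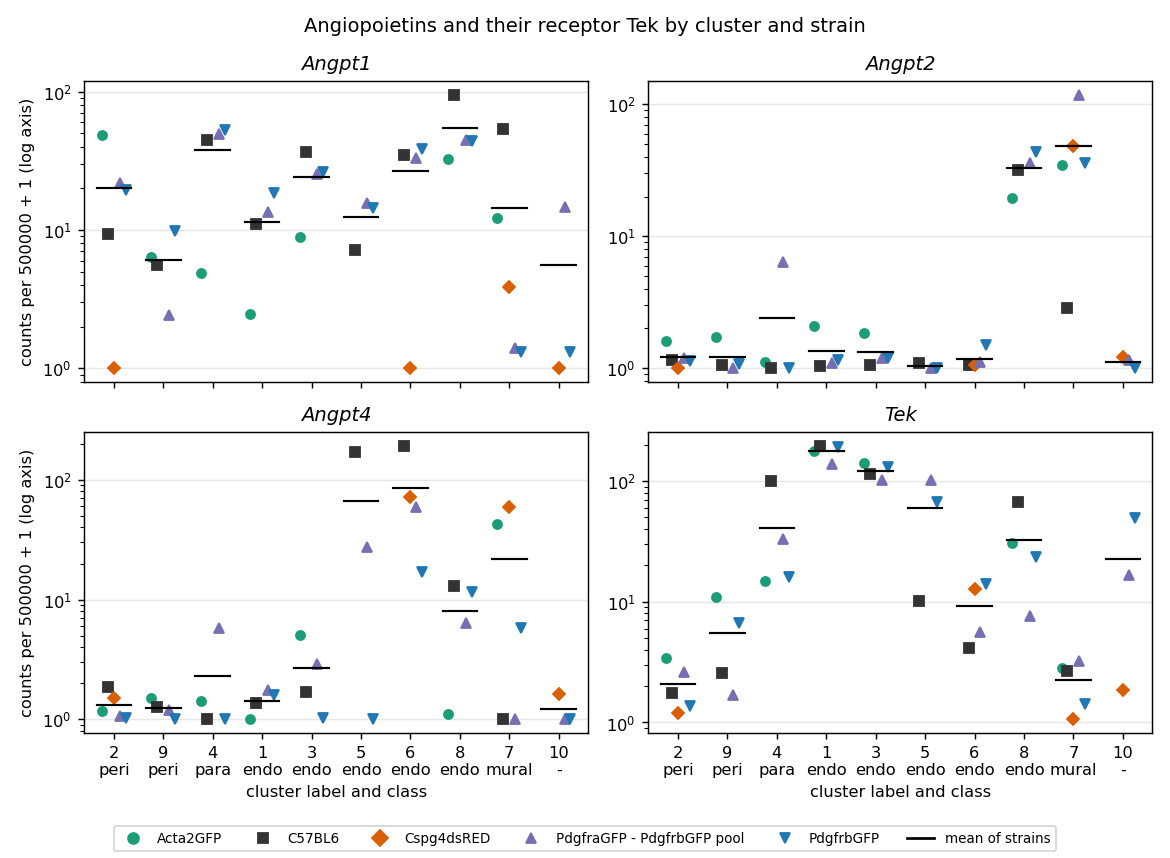
Level of the 3 angiopoietins and of their receptor gene Tek (vertical log axis, counts per 500000 plus 1) in each cluster, with 1 point per strain and a bar at the mean. Angpt2 rose above 5.43 only in mural cluster 7 and endomysial cluster 8, and Tek was highest in endomysial clusters 1 and 3.

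The receptor of these angiopoietins was itself found in fibroblasts. Tek was at 177 in Acta2GFP, 195 in C57BL6, 138 in the pool and 189 in PdgfrbGFP in cluster 1, and at 102 to 139 in these 4 strains in cluster 3. Clusters 6, 2 and 7 were at 13.1 or less in every strain. In mural cells Tek was at 2.24 or less, with 0 of 187 cells positive, which allows up to 1.60%. Clusters 7 and 8, where Angpt2 was found, were not those with the most receptor, and cluster 8 had a Tek level of 31.3. Its partner Tie1 had a mean of 3.42 or less in every cluster, and none of Tek's exonic bases overlap another gene.

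The VEGF ligands were low and the lymphatic ligand Vegfd was the only one with a marked distribution. Vegfd (chrX:164373378-164402650, plus strand) was at 56.3 in C57BL6, 55.9 in the pool, 62.4 in PdgfrbGFP and 2.96 in Acta2GFP in cluster 1, the last from 6 cells. Clusters 5 and 8 had 41.1 ± 36.3 (SD, n = 3) and 24.7 ± 15.1 (SD, n = 4). These 3 clusters overlapped and held 56 of the 71 positive cells, and cluster 8 lay above all clusters that followed in every strain. Clusters 2 and 9 had 0 of 328 cells positive, which allows up to 0.915%. In cluster 8, 11 of the 21 Vegfd-positive cells were also positive for Angptl4, against 63 of the 232 others. These are cells of all strains together, and the difference was not tested.

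Vegfc (chr8:54077606-54187096, plus strand) was at 11.7 ± 4.25 (SD, n = 4) in cluster 8 and 11.03 ± 10.3 (SD, n = 5) in cluster 2. In cluster 8, 17 of 253 cells were positive, of which 6 were among the 31 Angpt2-positive cells and 11 among the other 222, which was not tested. Cluster 10 held 0 counts of Vegfc. Vegfa (chr17:46016993-46032369, minus strand) reached 12.7 ± 8.00 (SD, n = 4) in cluster 1, with 23.97 in C57BL6 and 5.14 in PdgfrbGFP. For both genes no cluster stood apart from the next in order beyond its strains, and in single cells of this depth levels this low leave most cells at 0 counts. In 51 endomysial cells of the Cspg4dsRED strain, both had 0 counts, which allows a level of up to 0.237.

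**Figure D4:**
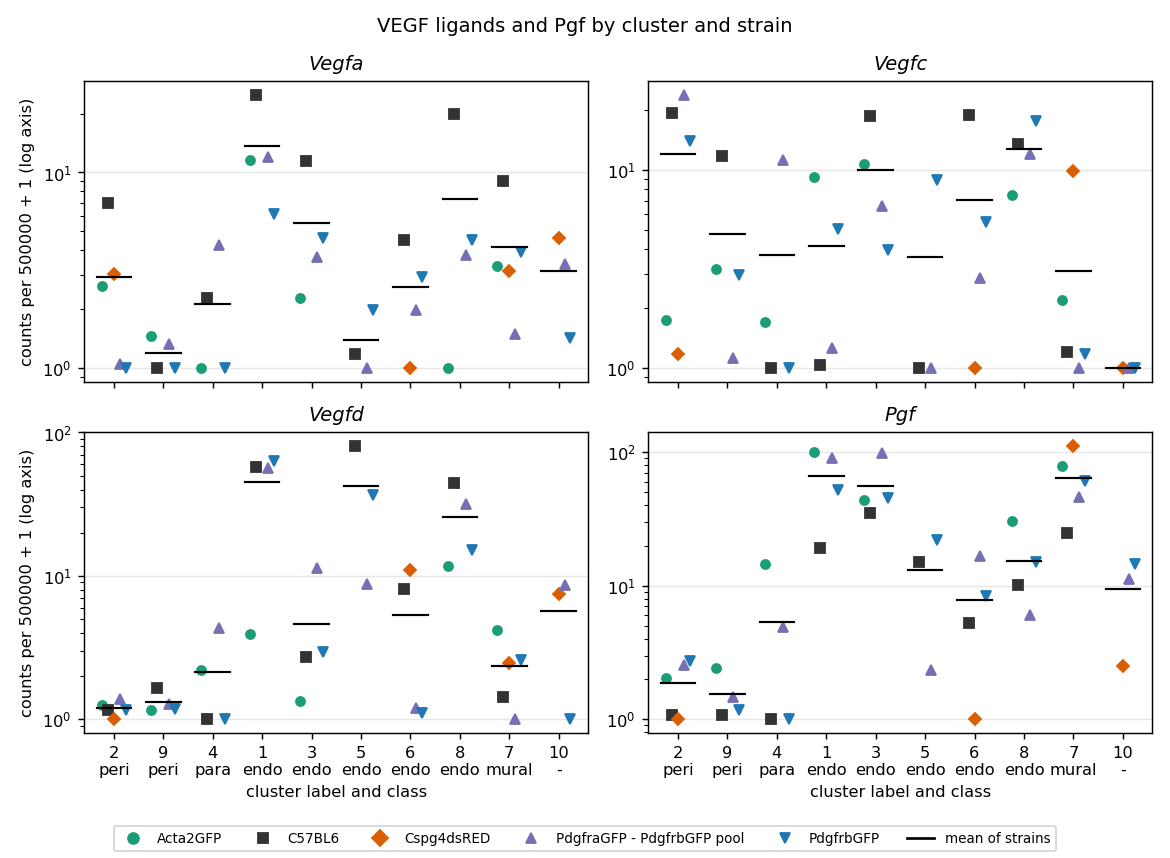
Level of the 3 VEGF ligands and of Pgf (vertical log axis, counts per 500000 plus 1) in each cluster, with 1 point per strain and a bar at the mean. Vegfd was highest in clusters 1, 5 and 8 and near 0 in clusters 2 and 9, and Vegfa stayed at or under 23.97 in every strain.

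Of the further ligands of these families, placental growth factor, encoded by Pgf and a ligand of Flt1, was the most abundant, at 63.6 ± 32.9 (SD, n = 5) in mural, 64.8 in cluster 1 and 54.8 in cluster 3. Pgf was at 0.830 in perimysial cells. Vegfb was at 19.1 in mural and 6.34 in all fibroblasts. Per kilobase of exon, the scale on which genes can be compared, Angptl7 stood at 886 in perimysial cells, against 56.1 for Angptl2 and 33.6 for Angptl1. In paramysial cells the order was Angptl1 at 173, Angptl2 at 59.7 and Angptl7 at 52.3 per kilobase. In the paramysial value of Angptl7, Acta2GFP (6 cells) weighed most, and without it the mean was 11.01 per kilobase. In mural cells Angptl2 had 22.9, Pgf 21.9 and Angpt2 12.7 per kilobase. The order of these 3 genes was not the same in every strain. Angptl2 was above Pgf in the pool (55.7 against 15.6) and in C57BL6 (32.6 against 8.25), which held 11 and 9 mural cells. In Acta2GFP, Cspg4dsRED and PdgfrbGFP, Pgf was at 20.7 to 38.1, above both Angptl2 at 7.19 to 9.49 and Angpt2 at 9.18 to 12.7 per kilobase.

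The classes were then compared on counts summed per strain, with edgeR's quasi-likelihood test, strain as a block and Benjamini-Hochberg adjustment over all genes tested. Between mural cells and all other clusters, Angptl1 was lower in mural cells by a log2 fold change of -6.64 (SE 0.736, adjusted p = 0.000693) and Angptl7 by -5.46 (SE 0.502, adjusted p = 0.000320), each in 5 of 5 strains. These were 2 of 10 members called lower and 0 called higher, against backgrounds of 9.27% and 6.15% of the 13880 genes tested. The other clusters differed widely in Angptl7, with means of 2380 in cluster 2 and 1672 in cluster 10. Endomysial cluster 8, at 8.41 to 62.1 over strains, overlapped with mural cells at 5.86 to 15.6. Angpt2 had a positive log2 fold change of 2.66 (SE 1.06), with the mural side above in 4 of 5 strains, without passing the adjusted threshold (adjusted p = 0.145). The exception was C57BL6, whose 9 mural cells also had an immune marker sum of 427 with 4 cells above 100, against 3.46 or less in the other strains. Without C57BL6 the difference was 3.40 and passed the threshold, and Angptl2 was then called lower as well, at -1.47. The immune cells' part in it was not tested. The median log2 fold change was -1.30 over the members and -0.46 over all genes.

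Between perimysial and endomysial cells, Angptl7 was higher in perimysial cells in 5 of 5 strains. Its perimysial levels were 1035 in Acta2GFP, 1200 in C57BL6, 3491 in Cspg4dsRED, 1795 in the pool and 2037 in PdgfrbGFP, against 52.9 to 87.8 in endomysial cells, so the groups did not overlap. The log2 fold change was 4.66 (SE 0.362, adjusted p = 0.000546). Angpt4 fell by 6.52 (SE 0.833, adjusted p = 0.00423), Vegfd by 6.27 (SE 0.827, adjusted p = 0.00475) and Angpt2 by 5.22 (SE 1.11, adjusted p = 0.0366) on the log2 scale, all in 5 of 5 strains. Thus 1 of 10 members was called higher and 3 lower, where 2.32% and 3.26% of the 14121 genes tested were. The Angpt2 call was lost without C57BL6, without the pool or without PdgfrbGFP, where Angpt2 had -5.05, -5.35 and -4.78. Endomysial Angpt2 came from cluster 8, at a mean of 31.8. Endomysial clusters 1, 3, 5 and 6 were at 0.0321 to 0.347, and perimysial clusters 2 and 9 at 0.215 and 0.212. Mean endomysial Angpt4 was highest in clusters 6 and 5, at 84.4 and 65.9, while cluster 1 was at 0.433 against 0.325 in cluster 2. The source differed by strain. Cluster 8 held 859 of the 1216 endomysial counts of Angpt4 in PdgfrbGFP, and cluster 3 held 208 of 209 in Acta2GFP. Angptl2, Angpt1, Angptl1, Angptl4, Vegfa and Vegfc did not pass the threshold, and Angptl2 was at 353 against 224.

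**Figure D5:**
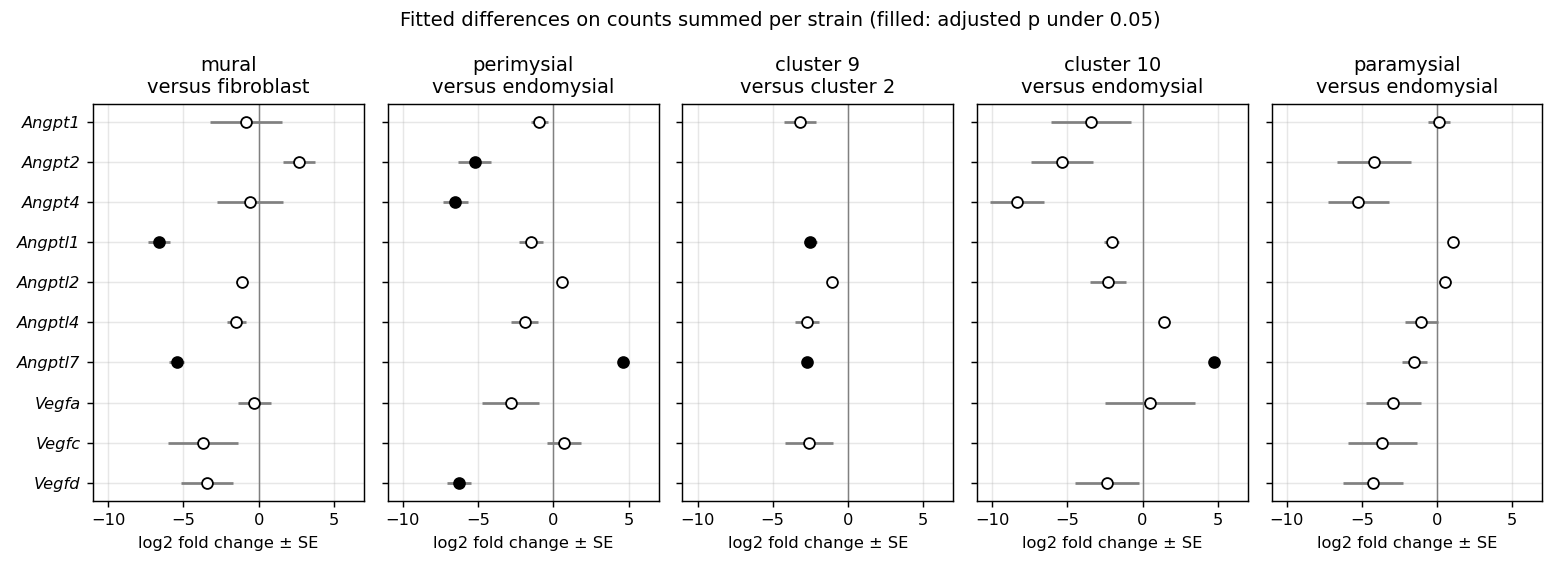
Log2 fold change of each member (horizontal axis, with its SE) in 5 comparisons of summed counts, each panel giving the first group over the second; filled points have an adjusted p under 0.05 over all genes. Angptl7 was higher in perimysial and in cluster 10 cells than in endomysial cells, and lower in mural cells and in cluster 9.

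Within the perimysial class, cluster 9 was lower than cluster 2 for Angptl7, at -2.75 (SE 0.328, adjusted p = 0.00931), and for Angptl1, at -2.50 (SE 0.430, adjusted p = 0.0420), each in 4 of 4 strains. These were 2 of the 6 members tested, where 0.557% of the 11843 genes tested were lower. In the 4 strains that held both, the mean Angptl7 level was 1994 in cluster 2 and 376 in cluster 9, a ratio of 5.30. The Angptl1 call was lost when any of the 4 strains was left out, with values of -2.05 to -2.88. It was also lost with 10 or more cells in each sum, which is the fit without the pool.

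Cluster 10 was compared with endomysial cells in the 3 strains that held it. Angptl7 was higher in 3 of 3 strains, by 4.74 on the log2 scale (SE 0.235, adjusted p = 0.00535), the 1 of 9 members tested that was called higher, where 0.265% of the 12455 genes tested were. Without PdgfrbGFP the value was 4.78 and no longer passed, in a fit of fewer strains in which 0 of all genes were called. Of the 8 cluster 10 cells of PdgfrbGFP, 1 had an endothelial marker sum above 100, and its part was not tested. Without Cspg4dsRED, 3 members were called, Angptl7, Angptl1 (-2.30) and Angptl2 (-3.92). Over all genes, 55 were called in the main fit and 0 to 216 when a strain was left out. Angptl4 was higher in 3 of 3 strains (1.45, SE 0.362, adjusted p = 0.262), and Angptl1 lower in 3 of 3 (-2.06, SE 0.515, adjusted p = 0.262), neither passing. Nerve and Schwann cell markers summed to between 77.6 and 216 in cluster 10, and their part in these values was not tested.

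Paramysial cells did not differ from endomysial cells in any member past the threshold: 0 of 10 members were called, and 0.0963% of the 14533 genes tested were, that is 14 genes. At an unadjusted p under 0.05 there were 2 of 10 members, Angptl1 and Angpt4, against 6.75% of all genes (981). DESeq2 called 787 genes, among them Angpt4 at -4.84 and Vegfd at -4.17. Angptl1, at 491 against 171, was higher in 4 of 4 strains (1.07, SE 0.262, adjusted p = 0.357). Angpt4, at 1.31 against 28.7, was lower in 4 of 4 strains (-5.24, SE 2.01, adjusted p = 0.613). Acta2GFP, C57BL6 and PdgfrbGFP had 6, 3 and 4 paramysial cells, and the pool had 46. In the pool the median paramysial cell held 648095 counts and the median endomysial cell 341184. The study reports more abundant capture of paramysial cells from soleus, so muscle and plate can differ between these sums, which the strain block does not remove. The median over all genes was -0.86 here, and that over the members -2.22.

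Among the 5 endomysial clusters, an F test that all are equal called 4 of 10 members, where 5.46% of the 16498 genes tested were called. They were Angptl2 (adjusted p = 9.64e-05), Angpt2 (adjusted p = 0.000137), Angptl1 (adjusted p = 0.00164) and Angptl7 (adjusted p = 0.0194). Cluster 3 was above cluster 8 for Angptl1 and Angptl2, by 6.39 and 3.55 times in mean level, and cluster 8 was above cluster 3 for Angpt2 in every strain. Vegfd (adjusted p = 0.0979), Angpt1 (adjusted p = 0.0783) and Angpt4 (adjusted p = 0.241) did not pass. Vegfd was called with plates as units (adjusted p = 0.00240), and DESeq2 called Vegfd, Angpt1 and Vegfa. The Angptl7 call was lost without C57BL6, without the pool or without PdgfrbGFP, with adjusted p-values of 0.0582 to 0.247.

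Genes that act with these ligands were read from lists. Of 9 receptor and co-receptor genes tested between mural and other cells, 1 was higher and 1 lower: Itgb1, a broadly used integrin subunit (1.26, SE 0.207, adjusted p = 0.00441), and Tek (-6.01, SE 0.645, adjusted p = 0.000602). Between perimysial and endomysial cells 1 was higher and 2 lower, with Tek at -5.76 (SE 0.622, adjusted p = 0.00202), Itga5 at -1.22 and Itgb1 at 0.54. Over all genes tested, 6.15% were higher and 9.27% lower in mural cells, and 2.32% and 3.26% in perimysial cells. Nrp1, a co-receptor of VEGF ligands, differed among the endomysial clusters (adjusted p = 0.000204), with mean levels of 381 in cluster 8 and 306 in cluster 6 against 73.0 in cluster 1. Kdr, the Vegfa receptor, was under 3 in every cluster other than 10 and 7. Its mean was 61.5 over the 8 cluster 10 cells of PdgfrbGFP and 63.0 over the 11 mural cells of the pool, against 2.09 or less in the other strains. The share of cells positive for Kdr was 1.61% in cluster 10 and 0.535% in mural cells, which is 1 cell in each. Flt4 did not pass a mean of 0.249. The median log2 fold change over the receptors was -0.99 between mural and other cells.

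Of 9 genes that process the ligands or are their targets, 5 were lower in mural cells and 0 higher, against 9.27% and 6.15% of all genes. Ccbe1, a cofactor in the activation of Vegfc, had a log2 fold change of -6.55 (SE 0.952, adjusted p = 0.00251), the protease gene Pcsk5 had -6.45 (SE 0.554, adjusted p = 0.000237) and the matrix gene Svep1 had -6.37 (SE 0.461, adjusted p = 0.000124). The median over this list was -1.89, against -0.46 over all genes. Perimysial cells had higher Adamts3, which encodes a protease that cleaves Vegfc, by 3.32 (SE 0.749, adjusted p = 0.0472), and lower Lpl, at -1.42 (SE 0.156, adjusted p = 0.00221). Pgf, from the list of further ligands, was lower in perimysial cells at -6.01 (SE 0.759, adjusted p = 0.00645).

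Among genes of the response to low oxygen, a response that can raise Vegfa and Angptl4, 3 of 14 were higher and 2 lower in mural cells. This list also holds Hif1a, Epas1 and Arnt, which encode transcription factors of the response, and their RNA is not a measure of it. The changes of largest size were Adm at -6.43 (SE 0.514, adjusted p = 0.000197), Epas1 at 4.52 (SE 0.318, adjusted p = 0.000108) and P4ha1 at -2.33 (SE 0.400, adjusted p = 0.00555). In perimysial cells 1 of 13 was higher, P4ha1 at 1.51 (SE 0.135, adjusted p = 0.000844). Over all genes tested, 6.15% were higher and 9.27% lower in mural cells, and 2.32% and 3.26% in perimysial cells. In cluster 10, 0.265% of all genes were higher. Of 12 immediate early and stress genes, which dissociation can raise, 1 was higher and 2 lower in mural cells, 0 higher and 2 lower in perimysial cells, and 1 higher in cluster 10. Their part in the ligands' levels was not tested.

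The muscle of origin was labelled for endomysial cells of 2 strains, in which soleus, a slow postural muscle, could be set against gastrocnemius. Angptl7 was at 11.5 in soleus and 76.0 in gastrocnemius in the pool, and at 36.0 and 100.3 in PdgfrbGFP. Vegfd was at 11.1 and 22.7 in the pool, and at 1.59 and 13.8 in PdgfrbGFP. Both were lower in soleus in 2 of 2 strains, with log2 fold changes of -2.15 (SE 0.503) and -2.45 (SE 0.671) and an adjusted p = 0.967 each in edgeR. Of the 10 members 0 were called, and 0% of the 16337 genes tested were. At an unadjusted p under 0.05 there were 2 members and 807 genes, and DESeq2 called these same 2 members, Angptl7 and Vegfd, and 115 genes. The 2 muscles held different mixes of clusters. Cluster 3 made up 51 of 90 soleus and 19 of 112 gastrocnemius cells in PdgfrbGFP, and 47 of 108 and 116 of 194 in the pool. Within cluster 3 alone Angptl7 had -1.42 and Vegfd -2.39, neither called. Angptl7 was also lower in soleus among perimysial cells, at 991 against 2438 in the pool and 956 against 2103 in PdgfrbGFP, which was not tested. Of these soleus cells, 8 of 16 in the pool and 9 of 16 in PdgfrbGFP were in cluster 9, the perimysial cluster with less Angptl7, against 1 of 20 and 1 of 19 of the gastrocnemius cells. In the pool each muscle was on its own plate, so plate and muscle cannot be told apart there, and in PdgfrbGFP both were on 1 plate.

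For the 5 members positive in 5% or more of cells, the genes closest in pattern were sought among 10256 genes by Pearson's r of log2(CPM + 1) over 40 sums of a cluster within a strain. For Angptl7 these were Nt5e (r = 0.776), Gm15851 (0.749) and Bambi (0.733), and for Angptl1 they were Gm37802 (0.990), Fbln2 (0.849) and Nnmt (0.814). Gm37802 is the gene that overlaps Angptl1 on the opposite strand. For Angptl2 they were Efemp2 (0.698), Ccdc80 (0.696) and Gas1 (0.645), for Angpt1 Vcam1 (0.690), Eps15 (0.676) and Gulp1 (0.668), and for Angptl4 Isy1 (0.718), Cct3 (0.712) and Ptbp1 (0.706). Between members, the highest r were 0.467 for Angpt1 with Angptl1 and 0.463 for Vegfa with Vegfd, and the lowest were -0.573 for Angpt2 with Angptl7 and -0.514 for Angpt2 with Angptl1. Sums of a strain share their plates and depth, and these r are descriptions over sums that are not independent.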

How the data were processed

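Sorted cells lay on 384-well plates, were amplified with Smart-seq2, which carries no molecular identifiers, and were read as single 50-base reads. What the authors deposited are whole-number counts of reads for each gene in each cell, made with bcl2fastq, trim galore, TopHat2 on GRCm38 and featureCounts. The annotation release and strand setting were not given in the sources used here. Of 1754 columns, 1 had no matching label and was not used. Spike-ins (1.31% of counts) were left out of all totals. Clusters were taken from the labels, and doublets were not called again. A protocol label mentions heart, while the tissue labels say skeletal muscle.

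Symbols and positions came from GENCODE M21 (46005 identifiers matched) and promoters from RefSeq. Counts were summed per class and strain (3 or more cells), filtered with filterByExpr and scaled by TMM. edgeR 4.0.16 (R 4.3.3) then fitted them with strain as a block, and genes were called at an adjusted p under 0.05. The classes of a strain came from the same set of preparations, but plates and muscles can be mixed differently in each class. The block does not remove such differences. The SE is the absolute log2 fold change divided by the square root of F. On simulated counts with 200 genes changed by 3 on the log2 scale, 198 of them were called between mural and other cells (13800 genes) and 141 between soleus and gastrocnemius (15981 genes). The simulation gave every gene the same spread, had no strain differences and changed only genes with higher counts. These values therefore do not give the power for sparse or more variable members. Limits from 0 counts (3 counts, or 3 cells for shares) cover counting error only. The members, lists and tests were chosen with earlier results of these data known. Every member is named, and of other lists up to 3 called genes of largest change per comparison. Some genes of these lists, and the list of PPAR-response genes, are not reported here. Alternatives were DESeq2 1.42.0, RLE size factors, no filter, no block, plates as units, 10 or more cells in a sum, leaving out each strain and, for shares, other levels of detection.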

Additional observations from a re-analysis of the deposited data

Results flagged for a closer look

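Of the 40 sets of strain means tested (10 members in 4 classes), 8 had 1 strain far from the others by Dixon's criterion. Its rate of about 1 in 20 by chance holds for normal values of equal spread. These means rest on unequal numbers of cells and many lie near 0, so the 8 cannot be judged against that rate. In paramysial cells Angpt1 was at 3.86 in Acta2GFP (next 43.7) and Angptl7 at 380 in Acta2GFP (next 56.0). Also in paramysial cells the pool, with 46 of the 60 cells, stood above the others for Angpt2 at 5.43 (next 0.123), for Angpt4 at 4.81 (next 0.411) and for Vegfc at 10.2 (next 0.711). In mural cells Angpt1 was at 52.3 in C57BL6 (next 11.3) and Vegfc at 8.86 in Cspg4dsRED (next 1.195). In perimysial cells Angpt2 was at 0.676 in Acta2GFP (next 0.145), which is 16 counts in 35 cells.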

How the results depend on the processing

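Of 618 values of single members under the alternatives, 27 gained a call, 14 lost one and 577 did neither, and none of the called values changed sign. The 577 include values of each strain alone between muscles, which had no test and so could not change a call. Fits that are the same under 2 alternatives were counted each time. DESeq2 gave 17 of the gains, with 5 members called between mural and other cells, 2 in paramysial cells, 5 in cluster 10, 5 between clusters 9 and 2, 7 among endomysial clusters and 2 between muscles. RLE size factors changed 0 calls. Without a filter on low counts, cluster 10 had 2 members called, and Angptl2 was called between clusters 9 and 2 at -1.12. With 10 or more cells in a sum there were 4 between mural and other cells, 0 in cluster 10 and 1 between clusters 9 and 2. In that order these are the same fits as those without C57BL6, without PdgfrbGFP and without the pool. Paramysial cells could not be fitted, since too few strains remained. With plates as units 1 was called between clusters 9 and 2, and Vegfd was called among endomysial clusters. Without the replicate block 1 call was gained, Angpt2 between mural and other cells at 3.01, and 0 were lost. Leaving out each strain gave 2 to 4 members between mural and other cells, 3 to 4 in perimysial, 0 in paramysial, 0 to 3 in cluster 10, 1 between clusters 9 and 2, and 3 to 4 among endomysial clusters. Shares of positive cells moved by more than the strain SD in 45 of 100 cases at a level of 20, in 94 at 1 or more counts and in 82 after thinning to 50000 counts. By level and by each of these shares the highest cluster was the same for Angptl1 (4), Angptl7 (2), Vegfa (1) and Vegfc (8). It moved in at least 1 share for the other 6 members, between clusters 8 and 4 for Angpt1, 7 and 8 for Angpt2, 6 and 5 for Angpt4, 1 and 5 for Vegfd, 2, 5 and 4 for Angptl2, and 10, 5 and 4 for Angptl4.

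Over all genes, DESeq2 called 4336 between mural and other cells against 2140 in edgeR, 2068 against 787 in perimysial, 787 against 14 in paramysial, 1005 against 55 in cluster 10, 857 against 109 between clusters 9 and 2, 2588 against 900 among endomysial clusters and 115 against 0 between muscles. The other edgeR fits gave 661 to 1294 in perimysial, 8 to 26 in paramysial, 0 to 274 in cluster 10, 35 to 345 between clusters 9 and 2 and 798 to 1783 among endomysial clusters. Leaving out strains gave 1230 to 2257, 395 to 1416, 10 to 64, 0 to 216, 35 to 50 and 242 to 737 in the same order, mural cells first. The cause was not tested.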
